A study of Mus musculus with 10 samples.

Results

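Acute phase protein genes encode the plasma proteins whose output from the liver changes in inflammation. The 10 genes described here are *Saa1*, *Saa2*, *Saa3*, *Saa4*, *Hp*, *Orm1*, *Orm2*, *Orm3*, *Lcn2* and *Crp*, chosen by name and found by their symbol among the 24052 gene symbols that were counted. RNA sequencing had been done on livers of mice labelled C57BL/6 and fed ad libitum, 5 from wild-type (WT) mice and 5 from mice in which exon 4 of *Ndrg3* was deleted in the liver (Ndrg3 LKO), with 1 library per liver. In the LKO line exon 4 is flanked by loxP sites and the albumin promoter drives Cre, and the line came from chimeras crossed to C57BL/6N. The study describes the gene as disrupted in hepatocytes. Which other liver cells keep exon 4 was not measured here. The WT animals were littermates, and male mice were used unless the study says otherwise. The labels give no age, and the methods and a figure legend of the study state different ages.

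The deposited values are reads counted per gene, with 20872262 to 24747870 counts per WT liver and 23474693 to 30450057 per LKO liver. They are shown here as TMM-normalized CPM, that is, CPM after library sizes were adjusted by edgeR's TMM method. *Ndrg3* had 15.9 to 21.9 CPM in WT and 7.07 to 9.16 CPM in LKO livers (log2 fold change -1.20 ± 0.13 (SE), edgeR's quasi-likelihood test, adjusted p = 3.87e-05). These counts cover the whole gene and do not measure exon 4 on its own. LKO replicate 5 stood apart on the first principal component, which held 68.7% of the variance, at 14.1 against 51.1 to 56.6 for the other LKO livers and -49.9 to -43.0 for the WT livers. Results that rest on it are therefore also given without it. The study's figure of its RNA sequencing shows only 4 LKO livers, and the study does not name the liver left out. Of 11208 genes tested, 5443 passed an adjusted p of 0.05, or 48.6%, with 25.6% higher and 23.0% lower in LKO livers.

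Hepatocytes make most acute phase proteins. Interleukin-6 acts through gp130 and the transcription factor STAT3, interleukin-1 and tumour necrosis factor act through NF-kB, and factors of the C/EBP family bind many of the promoters. Proteins that rise are called positive acute phase proteins, and those that fall, such as albumin and transthyretin, negative ones. Serum amyloid A1 and A2 are the classical inducible apolipoproteins of high-density lipoprotein, serum amyloid A4 is made constitutively, and serum amyloid A3 is made by macrophages, fat and epithelia as well as by liver. Haptoglobin binds free haemoglobin, the orosomucoids (alpha-1-acid glycoproteins) carry small lipophilic molecules and drugs, lipocalin 2 binds bacterial siderophores, and C-reactive protein is a pentraxin that binds damaged membranes and bacteria. In mice C-reactive protein is only weakly inducible, and the related pentraxin serum amyloid P (*Apcs*) takes its place.

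The Saa genes and the Orm genes are clusters of copies. In the mm9 annotation *Saa3* (chr7:53967368-53971046, minus strand), *Saa4* (chr7:53983387-53987913, minus strand), *Saa1* (chr7:53995871-53998350, minus strand) and *Saa2* (chr7:54007203-54009684, plus strand) lie side by side. *Orm1* (chr4:63005594-63009197), *Orm3* (chr4:63017196-63020545) and *Orm2* (chr4:63023483-63026912) follow each other on the plus strand. *Hp* lies at chr8:112099030-112103072 (minus strand), *Lcn2* at chr2:32240153-32243317 (minus strand) and *Crp* at chr1:174628187-174630097 (plus strand). None of the 10 overlaps another annotated gene. The coding sequences of *Saa1* and *Saa2* were 95.1% identical, whereas *Saa1* shared 77.0% with *Saa3* and 67.3% with *Saa4*. Among the Orm genes, identity was 89.9% between *Orm1* and *Orm2*, 88.3% between *Orm2* and *Orm3* and 86.4% between *Orm1* and *Orm3*. A stretch as long as a read (100 bases) was never shared between the annotated transcripts of *Saa1* and *Saa2*, but 47 of the 676 such stretches of *Orm1*, or 6.95%, also occur in *Orm2*. RefSeq lists *Saa2* as a synonym of *Saa1* and *Saa1* as a synonym of *Saa2*, so which copy each symbol stands for depends on the annotation behind the counts, which is not given in the sources used here.

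The stretches before the gene starts show how close the copies are outside the coding sequence. RefSeq promoters (GRCm38.p6) were found for 8 of the 10 genes, *Hp* and *Orm1* being the others, and the 250 bases before the start are printed for the 4 Saa genes and for *Orm2* and *Orm3*, which are the members with copies. Each runs 5′ to 3′ on the strand of its gene, and capitals mark matches to a C/EBP motif, TTGCNNAA on either strand, and to a TATA box, TATAAA on the gene's strand. The windows are chr7:46742981-46743230 for *Saa1*, chr7:46751583-46751832 for *Saa2*, chr7:46715677-46715926 for *Saa3*, chr7:46732604-46732853 for *Saa4*, chr4:63362199-63362448 for *Orm2* and chr4:63355908-63356157 for *Orm3*.
Saa1: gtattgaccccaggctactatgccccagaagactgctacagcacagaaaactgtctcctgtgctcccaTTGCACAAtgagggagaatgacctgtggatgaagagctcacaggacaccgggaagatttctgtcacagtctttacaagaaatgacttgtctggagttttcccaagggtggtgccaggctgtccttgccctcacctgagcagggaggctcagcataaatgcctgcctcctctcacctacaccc
Saa2: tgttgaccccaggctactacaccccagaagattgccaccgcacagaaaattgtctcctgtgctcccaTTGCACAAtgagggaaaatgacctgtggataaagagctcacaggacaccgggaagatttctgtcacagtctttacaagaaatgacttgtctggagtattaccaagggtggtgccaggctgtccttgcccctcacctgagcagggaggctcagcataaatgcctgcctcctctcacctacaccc
Saa3: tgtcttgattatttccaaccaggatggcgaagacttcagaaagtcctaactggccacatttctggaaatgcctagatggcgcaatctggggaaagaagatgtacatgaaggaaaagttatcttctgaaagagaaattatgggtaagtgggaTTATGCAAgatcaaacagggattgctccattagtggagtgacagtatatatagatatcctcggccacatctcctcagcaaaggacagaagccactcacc
Saa4: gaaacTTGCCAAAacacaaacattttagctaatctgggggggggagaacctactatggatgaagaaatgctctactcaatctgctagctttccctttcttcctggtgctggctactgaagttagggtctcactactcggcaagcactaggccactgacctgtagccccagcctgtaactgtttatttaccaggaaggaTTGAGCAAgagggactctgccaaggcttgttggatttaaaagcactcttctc
Orm2: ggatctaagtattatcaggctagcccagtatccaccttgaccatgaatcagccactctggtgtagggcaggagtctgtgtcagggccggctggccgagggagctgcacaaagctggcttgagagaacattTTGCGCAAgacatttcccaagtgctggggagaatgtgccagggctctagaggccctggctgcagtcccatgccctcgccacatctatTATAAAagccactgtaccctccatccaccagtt
Orm3: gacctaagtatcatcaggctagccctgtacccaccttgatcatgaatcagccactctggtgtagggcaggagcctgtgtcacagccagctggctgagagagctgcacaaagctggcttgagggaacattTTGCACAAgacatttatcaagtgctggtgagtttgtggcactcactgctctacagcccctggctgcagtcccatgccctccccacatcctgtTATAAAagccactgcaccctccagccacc
The windows of *Saa1* and *Saa2* were 94.8% identical and carried the same C/EBP match, TTGCACAA, starting 182 and 183 bases before the start. *Saa3* and *Saa4* shared only 52.7% and 47.1% of their windows with *Saa1*, counted over an alignment with gaps. *Orm2* and *Orm3* shared 85.9%, with a C/EBP match 120 and 121 bases and a TATA box 33 and 29 bases before the start. For the whole group, 7 of the 8 windows held the C/EBP motif (all but *Crp*), against 9.56% of 32851 RefSeq windows of this length. The NF-kB motif GGGNNTTTCC and the STAT motif TTCNNNGAA, sought on both strands, matched in none of the 8 windows, against 1.41% and 7.02% of all windows. TATAAA was present in *Orm2*, *Orm3* and *Crp*, against 7.59% of all windows. These are matches of letters and not measured binding sites.

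All 10 genes passed the filter on low counts, and 8 of them passed the test, 7 lower (*Saa1*, *Saa2*, *Saa4*, *Hp*, *Orm1*, *Orm3* and *Crp*) and 1 higher (*Saa3*) in LKO livers. Among all genes tested 48.6% passed in either direction and 23.0% were lower. *Orm2* and *Lcn2* did not pass. The median log2 fold change of the 10 was -2.71, against 0.03 over all genes tested. Without WT replicate 2 the median was -1.63, with 1 gene higher and 6 lower, and *Saa2* was the call lost. *Orm3* entered the test only through its WT counts, so its difference, its place in these counts of genes and the median are descriptions of what was kept. The groups did not overlap for 6 genes (*Saa1*, *Saa4*, *Orm1*, *Orm2*, *Orm3* and *Crp*), as for 31.5% of all genes tested. Without LKO replicate 5, 1 gene was higher and 8 were lower, *Orm2* being the one added, where 55.6% of all genes tested passed, 28.4% higher and 27.2% lower. The p-values measure the spread between these livers, and in bulk liver RNA fewer cells of a type and less RNA per cell cannot be told apart.

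**Figure D1:**
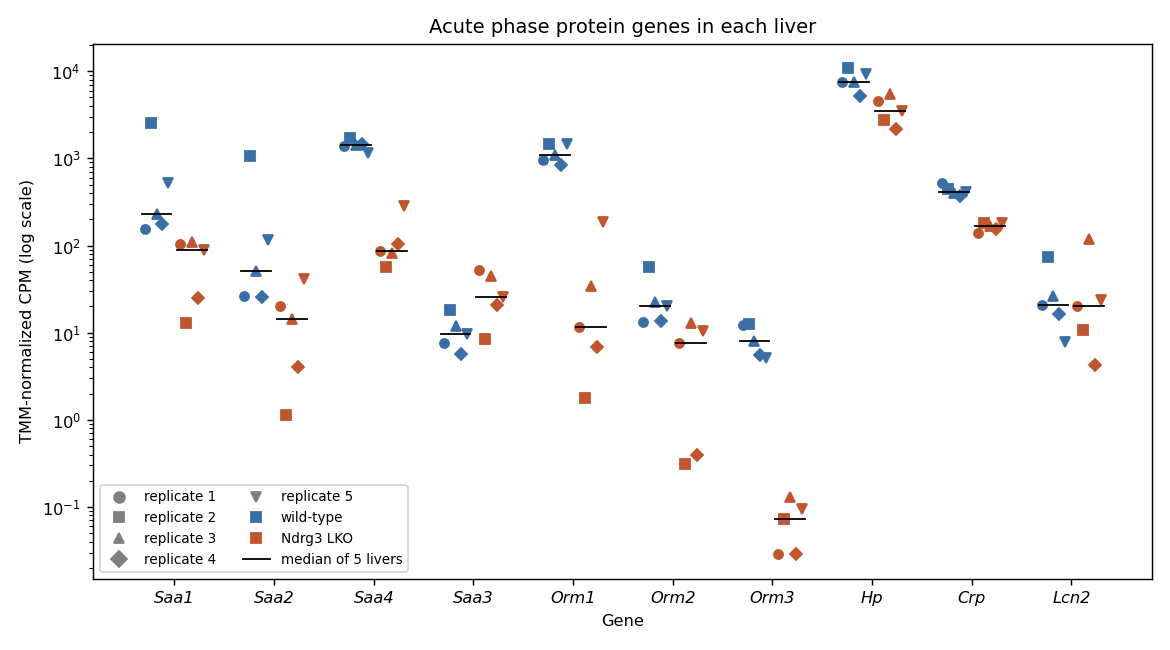
TMM-normalized CPM (log axis) of the 10 genes in each of the 5 WT (blue) and 5 Ndrg3 LKO (orange) livers, with symbols for replicate numbers and a bar at each group's median. WT replicate 2 sits far above the other WT livers for *Saa1* and *Saa2*, and the LKO livers of *Orm3* all sit at 0.129 CPM or less.

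*Saa1* and *Saa2*, the inducible serum amyloid genes, were the most variable members in WT livers. *Saa1* had 157, 2547, 227, 175 and 522 CPM in WT replicates 1 to 5 and 103, 13.1, 109.6, 25.2 and 89.1 CPM in LKO replicates 1 to 5. Every LKO liver lay below every WT liver, and WT replicate 2 lay 9.42-fold above the mean of the other WT livers. Its log2 fold change was -3.42 ± 0.89 (SE, adjusted p = 0.00788), or 10.7-fold lower. Without WT replicate 2 it was -2.01 ± 0.60 (adjusted p = 0.0194), more than 1 log2 unit nearer to 0, and the call held. The 2-sided exact permutation test gave p = 0.00794, the smallest that 5 livers against 5 allow.

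*Saa2* had 26.2, 1062, 50.7, 25.9 and 116 CPM in the WT livers and 20.1, 1.14, 14.3, 3.99 and 41.3 CPM in the LKO livers. The groups overlapped, since LKO replicate 5 lay above WT replicates 1 and 4. WT replicate 2 was 19.4-fold above the mean of the other WT livers. The log2 fold change of -3.99 ± 1.22 passed the test (adjusted p = 0.0180), but without WT replicate 2 it was -1.78 ± 0.81 and did not (adjusted p = 0.0946). With both WT replicate 2 and LKO replicate 5 left out, a fit added after the values were seen, it was -2.49 ± 0.75 and passed (adjusted p = 0.0173). Without LKO replicate 5 alone it was -4.71 (adjusted p = 0.00975). *Saa1* had 2.40 to 6.77 times as many counts as *Saa2* in WT livers and 2.16 to 11.5 times as many in LKO livers, and the log2 ratio did not pass a test between groups (difference 0.33, exact permutation test, p = 0.484, adjusted p = 0.692 over 10 family measures).

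*Saa4*, the constitutive member, was by contrast even across WT livers. It had 1377, 1732, 1409.7, 1457 and 1167 CPM in WT and 85.9, 56.1, 83.0, 104 and 283 CPM in LKO livers. All LKO livers were far below all WT livers, and LKO replicate 5 was the highest of them. The log2 fold change was -3.55 ± 0.41 (adjusted p = 5.74e-05), or 11.7-fold lower, and -4.13 ± 0.22 without LKO replicate 5 (adjusted p = 1.18e-07). The coefficient of variation of *Saa4* in WT livers was 14.2%, against 142% for *Saa1* and 177% for *Saa2*.

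*Saa3* moved the other way. It had 7.58, 18.3, 12.1, 5.74 and 9.76 CPM in WT and 52.7, 8.55, 45.3, 20.7 and 25.5 CPM in LKO livers. All LKO livers but replicate 2 were above every WT liver, and LKO replicate 2 lay inside the WT range. Its log2 fold change of 1.52 ± 0.44 passed the test (adjusted p = 0.0145), or 2.86-fold higher, and it was 1.56 without LKO replicate 5 and 1.78 without WT replicate 2. The exact permutation test gave p = 0.0397, and p = 0.0635 to 0.0714 when any one of WT replicates 1, 4 and 5 or LKO replicates 1, 3, 4 and 5 was left out. Markers of Kupffer cells and macrophages moved with *Saa3*. Their summed level was 111, 311, 140.1, 146 and 203 CPM in WT and 811, 243, 742, 433 and 365 CPM in LKO livers. All 9 tested markers were higher, where 25.6% of all genes tested were. LKO replicates 1 and 3 were the highest and LKO replicate 2 the lowest of the LKO livers for *Saa3* and for the summed markers. Their part in the rise of *Saa3* was not tested.

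The make-up of the family changed accordingly. The summed Saa level was 1568 to 5360 CPM in WT and 78.8 to 439 CPM in LKO livers (difference of mean log2(CPM + 1) -3.37, exact permutation test, p = 0.00794, adjusted p = 0.0159 over the 10 family measures). *Saa3* took 0.341% to 0.711% of the family's counts in WT and 5.82% to 20.1% in LKO livers, without overlap (p = 0.00794, exact permutation test, adjusted p = 0.0159). The shares of *Saa1*, *Saa2* and *Saa4* did not pass such a test (adjusted p = 0.744, 0.944 and 0.423, exact permutation tests). These shares are of counts, in which a longer transcript takes more, and the measures were chosen after the values were seen. The shares within a family sum to a whole, so they are not independent of each other.

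**Figure D2:**
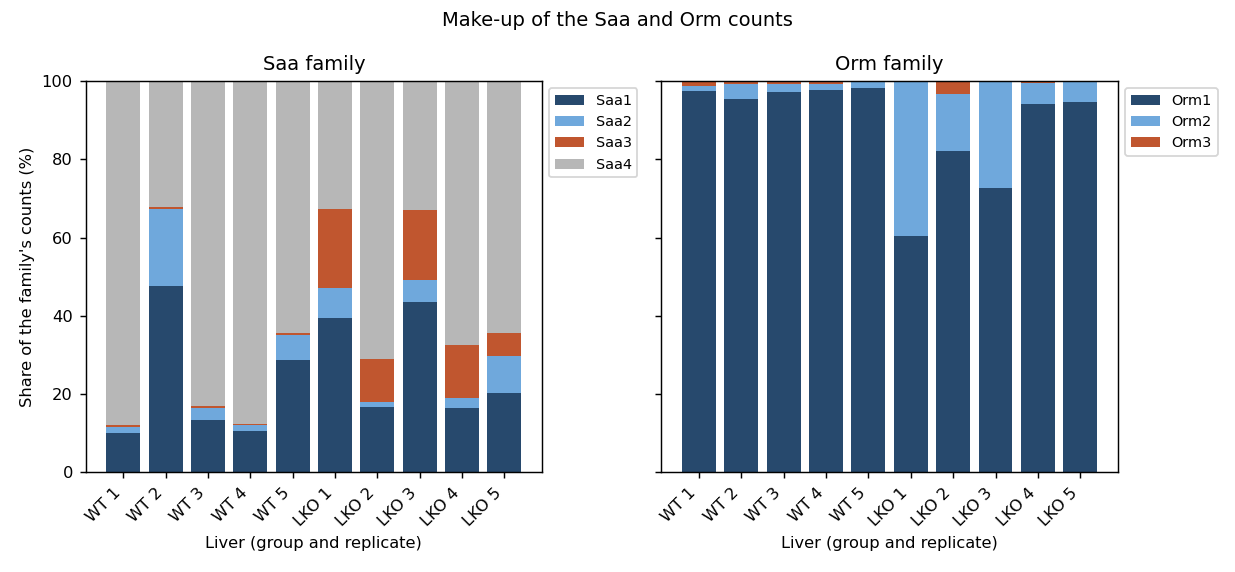
Stacked bars of each gene's share of the counts of the Saa family (left) and the Orm family (right), in percent, for the 5 WT and 5 Ndrg3 LKO livers. *Saa3* is a thin band in WT livers and 5.82% to 20.1% in LKO livers, and *Orm2* widens from at most 3.69% in WT to as much as 39.6% in LKO livers.

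*Orm1* was the main orosomucoid gene in counts and was lower in LKO livers. It had 964, 1458, 1092, 830.3 and 1461 CPM in WT and 11.6, 1.77, 34.5, 6.81 and 187 CPM in LKO livers. No LKO liver came near the WT range, and LKO replicate 5 was more than 5 times as high as the next. In the test across genes it was lower by a log2 fold change of -4.59 ± 1.04 (adjusted p = 0.00372), or 24.1-fold lower, and -6.42 ± 0.76 without LKO replicate 5 (adjusted p = 3.13e-05).

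*Orm2* was low in every liver, with 13.4, 56.4, 22.4, 13.5 and 20.1 CPM in WT and 7.62, 0.315, 12.8, 0.399 and 10.5 CPM in LKO livers. All LKO values lay below all WT values, the nearest being 12.8 and 13.4 CPM. The log2 fold change of -2.00 ± 0.83 did not pass the test across all genes (adjusted p = 0.0627), whereas the exact permutation test of the same livers gave p = 0.00794. Without LKO replicate 5 the value was -2.26 ± 0.88 (adjusted p = 0.0448), and without LKO replicate 3 it was -2.45 (adjusted p = 0.0449). LKO replicates 2 and 4 were more than 10 times below the other LKO livers, and this spread is within the LKO group. *Orm1* had 17170 to 29850 counts and *Orm2* had 238 to 1155 counts in WT livers, and because these genes share stretches as long as a read, the lower one is the more uncertain. Whether *Orm1* reads were counted on *Orm2* was not tested.

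*Orm3* was nearly absent from LKO livers. It had 12.2, 12.7, 8.02, 5.56 and 5.12 CPM in WT livers, from 86 to 260 counts, and 1, 3, 5, 1 and 2 counts in LKO replicates 1 to 5. Only LKO replicate 3 was above 3 counts, the smallest signal taken as detected, which corresponds to 0.0727 to 0.179 TMM-normalized CPM. With 828 counts over the WT livers and 12 over the LKO livers, the normalized ratio was 125, with an exact 95% interval for counting error of 70.9 to 242. The fitted log2 fold change of -6.87 ± 0.44 (adjusted p = 1.77e-06) depends on the prior count and is no bound.

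*Orm1* held 95.5% to 98.3% of the Orm counts in WT and 60.3% to 94.7% in LKO livers. The share of *Orm2* was 1.35% to 3.69% in WT and 5.29% to 39.6% in LKO livers (exact permutation tests, p = 0.00794 and adjusted p = 0.0159 for both shares). *Orm2* itself was not higher in LKO livers, so its larger share goes with the fall of *Orm1*. The share of *Orm3* did not pass such a test (exact permutation test, adjusted p = 0.992). The summed Orm level was 849 to 1527 CPM in WT and 2.16 to 198 CPM in LKO livers (difference of mean log2(CPM + 1) -5.73, exact permutation test, p = 0.00794, adjusted p = 0.0159).

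*Hp*, which encodes haptoglobin, was the most abundant member in all livers. It had 7586, 10817, 7507, 5255 and 9358 CPM in WT and 4529, 2731, 5425, 2196 and 3507 CPM in LKO livers. The groups overlapped only where LKO replicate 3 exceeded WT replicate 4. Its log2 fold change was -1.14 ± 0.28 (adjusted p = 0.00608), or 2.20-fold lower. This call depended on the scaling. With library size alone the value was -0.60 (adjusted p = 0.0673) and with quantile normalization -0.39 (adjusted p = 0.191). Library size alone moved the median of all genes from 0.03 to 0.56 and the share of higher calls from 52.6% to 85.2%, and relative to that median *Hp* was again more than 1 log2 unit lower. With quantile normalization the median of all genes was 0.04, so the smaller change of *Hp* there did not go with a shifted median.

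*Crp* was the steadiest member. It had 516, 447, 397, 371 and 413 CPM in WT and 140.3, 179, 169, 155 and 183 CPM in LKO livers. Every LKO liver lay below every WT liver, and LKO replicate 5 did not stand out. The log2 fold change was -1.37 ± 0.14 (adjusted p = 3.01e-05), or 2.59-fold lower, and the coefficients of variation were 13.1% in WT and 10.8% in LKO livers. *Apcs*, the other pentraxin of the acute phase, was higher instead, with 59.0, 65.2, 65.1, 44.0 and 72.8 CPM in WT and 118, 317, 242, 263 and 134 CPM in LKO livers (log2 fold change 1.81 ± 0.27, adjusted p = 3.02e-04).

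*Lcn2*, made by neutrophils and epithelia as well as by hepatocytes, showed no change that passed a test. It had 21.0, 73.4, 26.2, 16.5 and 7.74 CPM in WT and 20.5, 10.6, 118, 4.25 and 23.5 CPM in LKO livers. The highest WT liver was replicate 2 and the highest LKO liver was replicate 3, and the rest of both groups lay between 4.25 and 26.2 CPM. The log2 fold change was 0.29 ± 0.79 (adjusted p = 0.780, exact permutation test p = 0.865). Its sign depended on LKO replicate 3, without which it was -0.98 (adjusted p = 0.213). Of 12 neutrophil markers none reached the filter, and their summed level was 0.774 to 2.88 CPM in WT and 1.67 to 19.3 CPM in LKO livers, highest in LKO replicate 5, where *Lcn2* was 23.5 CPM, and 5.84 CPM in LKO replicate 3, where *Lcn2* was 118 CPM. *Mpo* and *Mmp8*, which mark neutrophil granules, were at 0 in every WT liver. They had at most 3 and 4 counts in LKO replicates 1 to 4, and 21 and 7 in LKO replicate 5. Each of the other neutrophil markers had counts in some WT liver. *Ltf*, also a granule marker, had 25 counts in WT replicate 2 and 26 in LKO replicate 5.

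**Figure D3:**
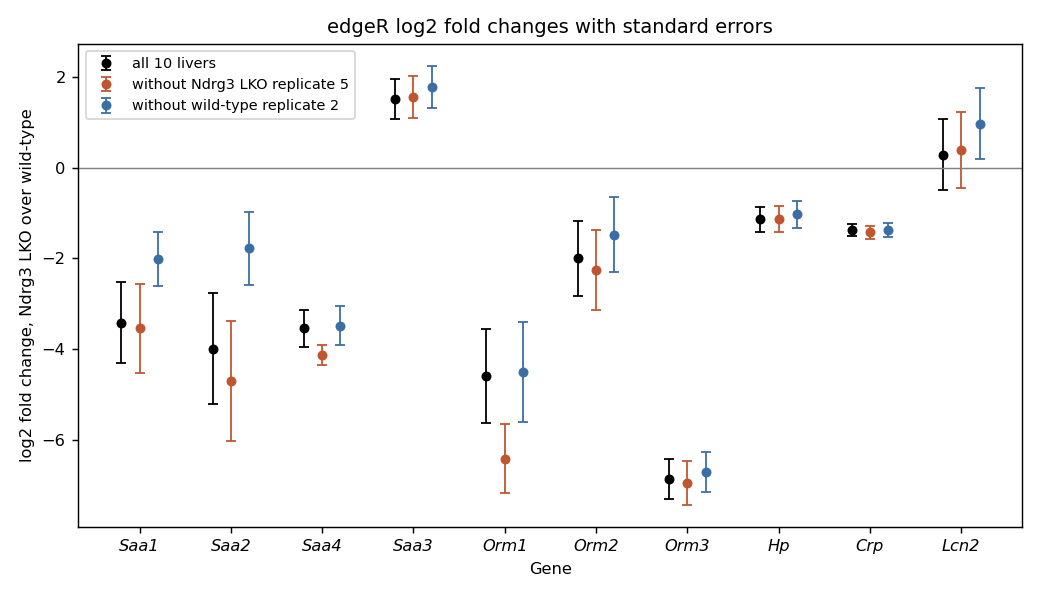
edgeR log2 fold changes (Ndrg3 LKO over WT) with standard errors as bars, for all 10 livers (black), without LKO replicate 5 (orange) and without WT replicate 2 (blue). Leaving out WT replicate 2 moves *Saa1* to -2.01 and *Saa2* to -1.78, and leaving out LKO replicate 5 moves *Orm1* to -6.42, while *Crp* stays near -1.4.

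Levels of different genes were compared per length. In WT livers the median CPM per kilobase of exon was 5649 for *Hp*, 1409 for *Orm1*, 699.6 for *Saa4*, 376 for *Saa1*, 243 for *Crp*, 83.1 for *Saa2*, 26.0 for *Orm2*, 18.4 for *Saa3*, 10.4 for *Orm3* and 9.12 for *Lcn2*. *Hp* lay above *Orm1*, and *Orm1* above *Saa4*, without overlap between livers, while all later neighbours in this order overlapped. In LKO livers the median was 2611 for *Hp*, 147 for *Saa1*, 99.8 for *Crp*, 48.1 for *Saa3*, 42.6 for *Saa4*, 23.4 for *Saa2*, 15.0 for *Orm1*, 9.83 for *Orm2*, 8.90 for *Lcn2* and 0.0941 for *Orm3*. There *Hp* lay above *Saa1* and *Lcn2* above *Orm3* without overlap, and the other neighbours overlapped. The annotated exons of *Lcn2* span 2302 bases, of which its coding transcript has 915, and per kilobase of that transcript its median was 22.9 in WT and 22.4 in LKO livers. On that scale *Lcn2* lay above *Saa3* in WT and above *Orm1* in LKO livers, so the places in the lower part of both orders depend on the transcript chosen.

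Many of the members were high or low in the same livers of a group. WT replicate 2 was the highest WT liver for 8 of the 10 genes, where it was highest for 14.0% of all genes tested. The exceptions were *Orm1*, in which WT replicate 5 was 1461 against 1458 CPM, and *Crp*, in which WT replicate 1 was highest. Among LKO livers replicate 2 was lowest for 6 genes and replicate 4 for 3, against 27.9% and 13.6% of all genes tested. Replicate 3 was highest for 5 genes and replicate 5 for 4, against 13.7% and 31.8% of all genes tested. The 10 genes took 0.75% to 1.51% of all counts in WT livers, the most in replicate 2, and 0.32% to 0.79% in LKO livers.

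**Figure D4:**
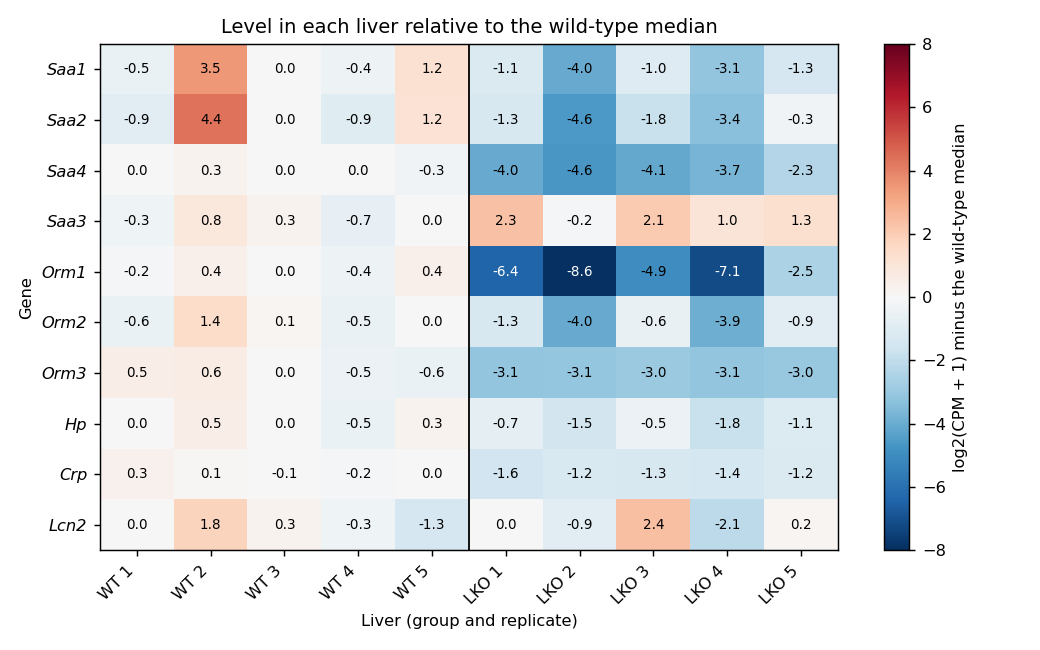
Heat map of log2(CPM + 1) minus the WT median of the same gene, with the value written in each cell, for the 10 genes (rows) in the 5 WT and 5 Ndrg3 LKO livers (columns). WT replicate 2 is above the WT median for all 10 genes, and LKO replicates 2 and 4 are the palest for *Saa3* and the darkest blue for *Saa1*, *Saa2*, *Orm1* and *Orm2*.

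As a measure of likeness, each gene's log2(CPM + 1) was taken as its deviation from its group mean and correlated over the 10 livers, which share libraries and scaling, so that these values describe the livers and carry no test. *Saa1* and *Saa2* were alike at r = 0.97, and both followed *Saa3* (0.83 and 0.75), *Orm2* (0.87 and 0.83) and *Hp* (0.80 and 0.70). *Saa4* was most like *Orm1* (0.84) and hardly like *Hp* (0.02). *Crp* was not like the Saa genes, at -0.26 to 0.20, and was most like *Orm3* (0.63). With 1 to 5 counts per LKO liver, *Orm3* hardly varied there on this scale, so its values rest mainly on the WT livers. Similar genes were then sought only among tested genes outside all the gene lists described here. Other acute phase genes and cell type markers therefore could not appear. The genes most like *Saa1* were *Ifi47* (0.97), *Siglece* (0.95) and *Cyb561* (0.94). Those most like *Orm2* were *Irf7* (0.97), *Btk* (0.96) and *Slc15a4* (0.96), and those most like *Lcn2* were *Accs* (0.98), *Emp1* (0.88) and *Csnk1d* (0.88). The gene *Ifi47*, induced by interferon, had 8.19, 25.6, 9.91, 6.75 and 14.8 CPM in WT and 11.1, 3.59, 9.29, 5.58 and 7.40 CPM in LKO livers, with WT replicate 2 the highest of all and LKO replicate 2 the lowest.

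Other positive acute phase genes showed more falls than rises. Of 24 on the list 22 were tested, and 4 were higher, 11 lower and 7 not called, where 25.6% of all genes tested were higher and 23.0% lower. The median log2 fold change was -0.92 against 0.03 over all genes. *Serpina3n* and *Serpina3m*, which encode serine protease inhibitors, were lower (log2 fold changes -3.37 ± 0.45 and -3.02 ± 0.52, adjusted p = 1.59e-04 and 7.39e-04), as was *Lrg1*, a leucine-rich glycoprotein (-2.38 ± 0.36, adjusted p = 3.57e-04). The 3 fibrinogen chains *Fga*, *Fgb* and *Fgg*, the clotting substrate, were lower at -1.48, -1.56 and -1.57, without overlap between groups. The iron hormone hepcidin (*Hamp*) was higher, with 1144, 293, 617, 881 and 978 CPM in WT and 1800.3, 1855, 1964, 2142 and 1969 CPM in LKO livers (1.31 ± 0.30, adjusted p = 0.00378). WT replicate 2, the highest for most members, was the lowest WT liver for *Hamp*. *Cd14*, the lipopolysaccharide co-receptor, was also higher (1.36 ± 0.51, adjusted p = 0.0425), at 1.17 to 5.89 CPM in WT and 3.16 to 12.3 CPM in LKO livers, but did not pass when any one of WT replicates 1, 3 and 4 or LKO replicates 1, 3 and 4 was left out (adjusted p = 0.0532 to 0.113). Without LKO replicate 5 the log2 fold change of *Serpina3m* was -3.92. *Hpx*, the haem scavenger hemopexin, was 6001 ± 1312 CPM in WT and 6167 ± 2316 CPM in LKO livers (mean ± SD, n = 5) and was not called.

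Negative acute phase genes were lower too. Of 12 tested, 8 were lower, 4 not called and 0 higher (edgeR, median log2 fold change -1.05), where 23.0% of all genes tested were lower, with 0 higher also at an unadjusted p under 0.05, by DESeq2 and by limma on log2(CPM + 1), though 1 was higher with library size alone and 2 with quantile normalization (median -0.34). Without LKO replicate 5, 11 were lower and the median was -1.65. The apolipoproteins of high-density lipoprotein *Apoa1* (-2.34 ± 0.65, adjusted p = 0.0110) and *Apoa2* (-1.64 ± 0.43, adjusted p = 0.00774) were lower, and so was *Igfals*, which carries insulin-like growth factors in plasma (-2.48 ± 0.27, adjusted p = 4.15e-05). *Apoa1* had 16761 to 24948 CPM in WT livers, 738 to 2336 CPM in LKO replicates 1 to 4 and 13994 CPM in LKO replicate 5. Without that liver the log2 fold change was -3.55 for *Apoa1* and -2.23 for *Apoa2*. The positive and the negative lists therefore both had more genes lower than higher.

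The cytokines that induce acute phase proteins were at low levels, and their receptors and transcription factors changed in part. *Il6* was at 0 in every WT liver and at most 0.0772 CPM in LKO livers, *Tnf* was at most 0.238 CPM and *Il1b* 0.112 to 2.14 CPM. None of these cytokines was tested in the main fit. Of 8 genes tested among cytokines and receptors, 1 was higher and 3 lower, where 25.6% and 23.0% of all genes tested were. This balance was not stable. With library size alone 4 were higher and 2 lower, where 51.9% and 9.01% of all genes tested were. Without LKO replicate 5, 4 of 10 tested were higher and 3 lower, where 28.4% and 27.2% of all genes tested were. *Il1a* entered that fit only through LKO livers, with 38 to 56 counts in LKO replicates 1 to 4 and 6 to 12 in WT. Its place in that count therefore describes what was kept. The interleukin-6 receptor chain *Il6ra* was lower (-1.44 ± 0.27, adjusted p = 0.00132), as were *Lifr*, the receptor of leukaemia inhibitory factor (-2.46 ± 0.28, adjusted p = 5.42e-05), and *Il1rap*, the accessory chain of the interleukin-1 receptor (-0.85 ± 0.22, adjusted p = 0.00883), and *Osmr*, the oncostatin M receptor, was higher (0.95 ± 0.24, adjusted p = 0.00740). Among 14 signal transducers and transcription factors, 5 were lower and 0 higher by edgeR, also at an unadjusted p under 0.05, by DESeq2 and by limma, while with library size alone 2 were lower and 2 higher. The 5 of 14 compare with 48.6% of all genes tested that passed in either direction and 23.0% that were lower, and 3 were lower when any one of WT replicates 1 and 2 or LKO replicates 1, 2 and 4 was left out. *Cebpa* fell from 298 to 394 CPM in WT to 65.8 to 195 CPM in LKO livers (-1.76 ± 0.28, adjusted p = 4.75e-04) and *Myd88*, the adaptor of the interleukin-1 receptor, from 22.4 to 33.9 to 9.96 to 15.1 CPM (-1.26 ± 0.15, adjusted p = 7.51e-05). *Cebpb* (-0.89 ± 0.34, adjusted p = 0.0479) and *Cebpd* (-0.97 ± 0.35, adjusted p = 0.0346) passed narrowly. Neither passed when any one of WT replicates 1 to 3 or LKO replicates 1 to 4 was left out, nor did *Cebpb* without WT replicate 5 (adjusted p = 0.0516 to 0.116 for *Cebpb* and 0.0536 to 0.0840 for *Cebpd*). *Stat3* had 82.4 to 159 CPM in WT and 74.7 to 118 CPM in LKO livers (-0.23 ± 0.19, adjusted p = 0.347), and its feedback target *Socs3* did not pass either (-0.62 ± 0.32, adjusted p = 0.126), except without LKO replicate 3 (-0.85, adjusted p = 0.0436).

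Receptors and partners of the acute phase proteins were mixed, with 3 of 6 tested higher and 2 lower, against 25.6% and 23.0% of all genes tested. *Cd163*, the macrophage receptor for haptoglobin bound to haemoglobin, was higher (5.57 to 13.1 CPM in WT and 10.9 to 31.2 CPM in LKO livers, 1.24 ± 0.33, adjusted p = 0.00877), as was *Hmox1*, which breaks down haem (0.99 ± 0.24, adjusted p = 0.00511). *Cd36*, a scavenger receptor that binds serum amyloid A, was higher at 1.10 ± 0.40 (adjusted p = 0.0397), and did not pass when any one of WT replicates 1, 2, 4 and 5 or LKO replicates 1, 2 and 5 was left out (adjusted p = 0.0624 to 0.0942). *Scarb1*, the receptor for high-density lipoprotein (-1.36 ± 0.14, adjusted p = 3.20e-05), and *Lrp1*, which clears haem bound to hemopexin (-0.79 ± 0.15, adjusted p = 0.00143), were lower.

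**Figure D5:**
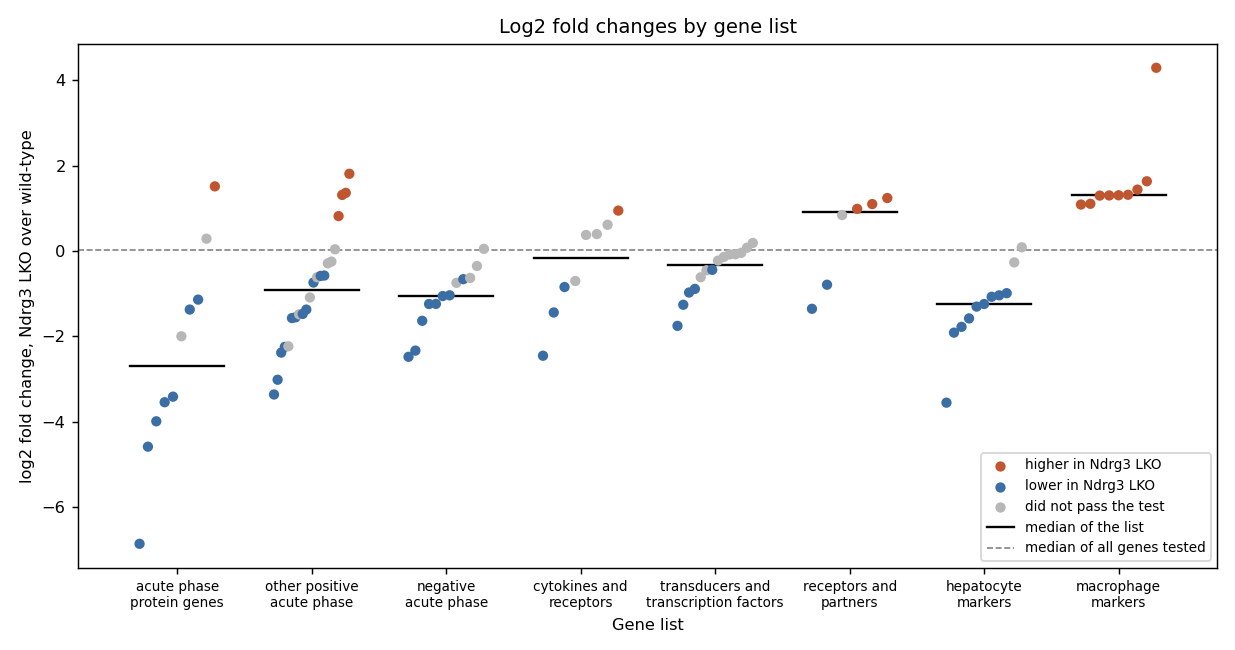
edgeR log2 fold changes (Ndrg3 LKO over WT) of the tested genes of 8 lists, 1 point per gene, coloured by call, with the list's median as a bar and the median of all genes tested (0.03) as a dashed line. The 10 acute phase protein genes have a median of -2.71, which is -1.63 without WT replicate 2. The other positive (-0.92) and the negative acute phase genes (-1.05, and -1.65 without LKO replicate 5) also lie below the dashed line.

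Markers of liver cell types moved between the groups as well. For the called markers below, the background in the main fit is 25.6% of all genes tested higher and 23.0% lower. Of 11 hepatocyte markers tested 9 were lower and 0 higher (edgeR, also at an unadjusted p under 0.05, median -1.24), against 8 lower and 0 higher by DESeq2, 5 lower and 1 higher with quantile normalization, and 9 lower and 1 higher with library size alone. Of 12 listed, *Ass1* alone was under 2 CPM in every liver. The summed hepatocyte markers were 128842 to 170758 CPM in WT, 36443 to 43751 CPM in LKO replicates 1 to 4 and 141894 CPM in LKO replicate 5, most of it from *Alb*. In LKO replicate 5, 5 of the 11 hepatocyte markers lay below the WT range, and 7 of the 10 acute phase protein genes did, against 32.2% of all genes tested. In LKO replicate 1, all 11 hepatocyte markers and 8 of the 10 genes lay below it, against 35.1% of all genes tested. Of the other lists, stellate cells had 5 of 8 and endothelial cells 5 of 6 tested markers higher, bile duct cells 1 higher and 1 lower of 5, adipocytes 0 of 1, and no lymphocyte marker reached the filter (summed 1.06 to 1.84 CPM in WT and 1.41 to 6.69 CPM in LKO livers). The part of these differences in cell types in the results on the acute phase protein genes was not tested. In WT replicate 2, 8 of 9 macrophage markers and 13 of 22 other positive acute phase genes were above the other WT livers, as were 4 of 5 bile duct markers and 0 of 11 hepatocyte markers, against 14.0% of all genes tested.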

How the data were processed

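RNA from 10 livers (5 wild-type, 5 Ndrg3 LKO) had been sequenced as stranded mRNA libraries with paired-end reads. What the authors deposited are raw counts of reads per gene symbol, made with STAR on the mm9 genome, although the file names say CPM. The submitters' notes name Trim Galore 0.6.4, STAR 2.7.3a and Cufflinks 2.2.1, and the study's methods give another STAR version. The annotation, the strand setting and the handling of reads that match several genes are not given in the sources used here, which bears on the Saa and Orm copies.

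A gene was tested if it reached 1 CPM in 5 or more livers (4 where a liver was left out), with edgeR 4.0.16 in R 4.3.3 (TMM, quasi-likelihood test, Benjamini-Hochberg adjustment over all genes tested, threshold 0.05), and SE is the size of the fitted change over the root of its F statistic. Single values were compared by 2-sided exact permutation tests of mean log2(CPM + 1). Alternatives used limma 3.58.1, DESeq2 1.42.0, other scalings, filters and pseudocounts, an absolute log2 fold change above 1, the replicate block and each liver left out. The fit was checked on counts made with known changes. No 2 livers of a group were identical, and pairs of them differed by more than sampling noise. The members and gene lists were chosen with earlier results of these data known. From each list the genes named are up to 3 called genes per direction with the largest change, beside *Il6*, *Il1b*, *Tnf*, *Stat3*, *Socs3*, *Cebpb* and *Cebpd*. *Fga*, *Fgb*, *Fgg*, *Hpx*, *Ass1*, *Mpo*, *Mmp8*, *Ltf*, *Il1a* and *Alb* were named after their values were seen. *Ly6g* and *Adgre1* were not found among the symbols. Counting intervals and floors cover counting error only.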

Additional observations from a re-analysis of the deposited data

Results flagged for a closer look

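In 7 of the 20 groups of 5 livers (10 genes, each in WT and in LKO livers), the highest liver lay far from the next. The gap exceeded the 95% critical value of Dixon's test on the CPM scale. That value assumes normally distributed levels, which CPM need not be, so no number expected by chance is given. The gaps were not tested on a log scale. WT replicate 2 was the liver in 4 of the 7 groups, with 2547 CPM of *Saa1*, 1062 CPM of *Saa2*, 56.4 CPM of *Orm2* and 73.4 CPM of *Lcn2*. The highest of the other WT livers had 522, 116, 22.4 and 26.2 CPM. LKO replicate 5 was the liver for *Saa4* (283 CPM against at most 104 CPM in the other LKO livers) and for *Orm1* (187 against at most 34.5 CPM). LKO replicate 3 was the liver for *Lcn2* (118 against at most 23.5 CPM). These genes share livers and are not independent of each other, so the 7 values come from 3 livers.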

How the results depend on the processing

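The counts of called genes among the 10 members (6 to 9 over 20 alternatives, 8 as reported) and among the other positive (11 to 18, 15 as reported) and the negative acute phase genes (6 to 11, 8 as reported) stayed within 1.5 times the reported ones. Over all genes, 2301 rather than 5443 passed when an absolute log2 fold change above 1 was also required. Leaving out each liver in turn gave 4703 to 6360 genes called, 7 to 9 members, 12 to 18 other positive and 6 to 11 negative acute phase genes. By exact permutation 9 of the 10 members passed, 7 to 8 with a liver left out and 7 with library size alone. *Lcn2* changed sign: its log2 fold change of 0.29 became -0.092 with quantile normalization, -0.17 with limma on log2(CPM + 1), and -0.98 to 0.97 with a liver left out, and its permuted difference of -0.17 became 0.31 with library size alone and -0.80 to 0.33 with a liver left out. The causes were not tested. *Saa3*, *Saa4*, *Orm1*, *Orm3* and *Crp* were called, in the reported direction, by edgeR or the other tool in every alternative fit that tested them (*Orm3* was not tested with a mean of at least 5 CPM). *Orm3* met the filter on low counts only through its WT livers, so its calls describe what was kept. *Saa1* was called in 18 of 19 (adjusted p up to 0.0537), *Saa2* in 17 (up to 0.112), *Hp* in 17 (up to 0.191) and *Orm2* in 4 (0.0173 to 0.168). By exact permutation, *Saa3* lost its call with a pseudocount of 0.1 (p = 0.0556) and in 7 of the 10 fits without a liver, *Saa2* with library size alone (p = 0.0635) and without WT replicate 2, 3 or 5 or LKO replicate 2, 3 or 4 (p = 0.0556 to 0.0794), and *Hp* with library size alone (p = 0.0714). Same-numbered WT and LKO livers did not deviate together (correlations of -0.36 to 0.04), so no pairing by number was visible. These correlations cannot decide whether the numbers pair the livers, because each liver's own deviations also enter them. The sample labels do not state a pairing, and shared litters or handling were not tested. With the replicate block, 4412 genes and 6 members were called, *Saa1* (-2.52) and *Saa2* (-2.39) no longer passed, and *Lcn2* was -0.18. Genes near 3 counts, such as *Orm3* in LKO livers, are limited by depth.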
